A study of Mus musculus with 9 samples.

Results

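Doubly acetylated control regions are stretches of chromatin where both acetylated histone H3 (AcH3) and acetylated histone H2B (AcH2B) were called in mouse 3T3-L1 cells given a control siRNA. They were chosen as the AcH3 siControl regions on chromosomes 1 to 19 and X that were shorter than 2000 bp and shared 1 bp or more with an AcH2B siControl region. This gave 5566 regions out of 20075 AcH3 siControl regions of that length, and out of 21995 AcH3 siControl regions in all. The other 14509 regions under 2000 bp met no AcH2B siControl region and are called AcH3-only regions here. The members were selected on the peak calls of the AcH3 siControl and AcH2B siControl libraries, so the control values of the members are a description. A further 956 AcH3 regions of 2000 bp or more also met AcH2B and were left out by the length limit. The members nearest the limit were 1997 and 1998 bp long, with AcH3 siControl folds of 10.4, 10.7 and 15.2, and the regions just over it were 2001 and 2002 bp long, with folds of 16.2, 8.63 and 12.8.

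The cells are 3T3-L1, an established mouse preadipocyte line that turns into fat-storing cells under a hormone cocktail. They were transfected with a negative control siRNA (siControl) or with siRNA against malic enzyme 1 (siME1) or malic enzyme 2 (siME2), were induced to differentiate 2 days later, and were fixed after 7 more days. Chromatin from each of these 3 treatments was precipitated with an antibody against AcH3, AcH2B or histone deacetylase 3 (HDAC3), giving 9 libraries with 1 library for each antibody and siRNA. The 3 libraries described as HDAC3 carry H3 in their titles, and the antibody label was followed. The control cells went through the same transfection and induction, and which residues the acetylation antibodies recognise was not stated in the labels. With 1 library a group no difference between conditions can be tested, and the 95% Wilson intervals given with shares cover counting error among regions of 1 library only. ME1 and ME2 protein and RNA were not analysed here, so the knockdowns themselves were not checked.

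Acetylation of the tails of H3 and H2B loosens chromatin and marks active promoters and enhancers, and acetylation of the H2B tail is best known from active enhancers. HDAC3 is the catalytic subunit of the NCoR and SMRT corepressor complexes and removes acetyl groups from histones. ME1 is a cytosolic enzyme that makes NADPH for fatty acid synthesis, and ME2 is its mitochondrial relative. The series is about NADPH, HDAC3 and histone acetylation, and the comparison here is how control regions carrying both marks fared when either enzyme was knocked down.

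The AcH3 lists held 21995, 34799 and 28415 regions in siControl, siME1 and siME2, the AcH2B lists 20046, 54649 and 32465, and the HDAC3 lists 4614, 5202 and 1597. Read totals were not used here, so depth is unknown, and lists of different length give different chances of meeting any region. Each region has a fold, the authors' enrichment of the pileup over the local background at the summit, and is scored here by its best summit. The HDAC3 lists are weak: 7.27%, 2.22% and 3.73% of their regions had a q of at most 0.05. Of the markers used to check the cell label, 7 of 7 preadipocyte or fibroblast genes had an AcH3 siControl region within 1 kb of a gene end, and 6 of these 7 a doubly acetylated one (Dlk1, Pdgfra, Thy1, Col1a1, Col3a1 and Twist1). Of 7 adipocyte markers, Lpl, Pparg and Cebpa had an AcH3 region there, Adipoq, Fabp4, Plin1 and Cidec had none, and no adipocyte marker had a doubly acetylated one. Of the 18 neuronal, hepatocyte, muscle, leukocyte, endothelial, bone and cartilage markers, only Apoa2 and Spi1 had an AcH3 region and none a doubly acetylated one.

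Sequences are shown for 5 gene starts that lay inside a doubly acetylated region, chosen to show a promoter of the strongest member at a protein-coding gene end (Ubb), promoters of redox genes (Srxn1 and Prdx1), of a fibroblast matrix gene (Col3a1) and of an actin and growth factor response gene (Srf). Srf lies outside the rule for named genes and was chosen after its values were seen. For each gene only a start whose 250 bases held the marked motif was taken, so the presence of that motif is part of the choice. Each line is the 250 bases before an annotated start, from RefSeq on GRCm38.p6, read 5′ to 3′ in the direction of the gene. Capitals mark matches to the AP-1 motif, searched as TGANTCA with any base as N, in Ubb, Srxn1 and Prdx1. In Col3a1 they mark TATAAA, and in Srf the CArG box, the binding motif of SRF. The match is TGAATCA in Ubb, and those in Srxn1 and Prdx1 have G or C as N.
Ubb, chr11:62551481-62551730, plus strand: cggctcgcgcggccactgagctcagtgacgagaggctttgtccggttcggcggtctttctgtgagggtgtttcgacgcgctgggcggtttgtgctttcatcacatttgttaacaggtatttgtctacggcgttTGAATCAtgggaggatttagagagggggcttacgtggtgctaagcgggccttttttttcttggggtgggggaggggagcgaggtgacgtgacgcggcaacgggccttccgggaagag
Srxn1, chr2:152105274-152105523, plus strand: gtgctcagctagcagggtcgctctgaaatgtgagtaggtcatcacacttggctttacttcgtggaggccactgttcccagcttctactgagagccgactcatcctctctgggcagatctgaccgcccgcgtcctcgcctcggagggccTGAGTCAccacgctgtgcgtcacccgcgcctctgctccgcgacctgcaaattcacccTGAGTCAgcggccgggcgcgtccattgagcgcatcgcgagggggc
Prdx1, chr4:116685349-116685598, plus strand: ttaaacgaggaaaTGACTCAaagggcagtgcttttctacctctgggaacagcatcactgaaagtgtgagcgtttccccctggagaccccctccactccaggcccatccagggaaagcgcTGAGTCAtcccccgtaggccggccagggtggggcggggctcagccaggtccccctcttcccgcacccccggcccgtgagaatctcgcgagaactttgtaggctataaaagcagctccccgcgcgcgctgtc
Col3a1, chr1:45311288-45311537, plus strand: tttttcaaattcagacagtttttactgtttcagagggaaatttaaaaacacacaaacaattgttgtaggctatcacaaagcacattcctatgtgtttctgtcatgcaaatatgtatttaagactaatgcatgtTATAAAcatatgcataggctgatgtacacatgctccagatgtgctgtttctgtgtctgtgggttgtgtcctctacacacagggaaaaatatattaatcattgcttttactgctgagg
Srf, chr17:46556163-46556412, minus strand: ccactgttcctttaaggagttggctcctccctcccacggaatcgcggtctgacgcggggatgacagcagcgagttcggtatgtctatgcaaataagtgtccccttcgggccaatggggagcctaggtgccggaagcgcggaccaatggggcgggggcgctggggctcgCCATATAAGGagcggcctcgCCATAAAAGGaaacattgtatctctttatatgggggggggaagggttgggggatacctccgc

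AP-1 sites bind dimers of Jun and Fos proteins, which act in growth factor and stress responses. In the starts taken to show it, the motif stood 1 time in the 250 bases of Ubb, 2 times in Srxn1 and 2 times in Prdx1. The Srf promoter, taken to show the CArG box, held 2 of them. Over all 716 protein-coding starts inside doubly acetylated regions, 6.56% had an AP-1 match in these 250 bases on either strand (4.97% to 8.62%), against 3.44% of 5545 starts inside AcH3-only regions (3.00% to 3.96%) and 6.17% of all 21045 promoters in the table, to which it was close. TATAAA was found in 6.15% of doubly acetylated starts, in 4.56% of AcH3-only starts and in 11.7% of all promoters. CCAAT was found in 27.9%, 37.4% and 35.6%, with 27.9% also for starts inside AcH3 regions of 2000 bp or more, and the ETS motif CCGGAAG in 13.1%, 17.4% and 9.08%. The C/EBP motif TTGCNNAA was found in 8.80% of doubly acetylated starts (6.94% to 11.1%), in 6.26% of AcH3-only starts (5.65% to 6.93%) and in 9.18% of all promoters. The CArG box was found in 1.40%, 0.667% and 1.40%. For AP-1 and C/EBP the share of all promoters lay inside the interval of doubly acetylated starts, so neither was raised over all promoters. Starts without any AcH3 siControl region had higher shares of both, 7.83% for AP-1 and 11.04% for C/EBP. Of 10 motifs searched, AP-1 and C/EBP matches were more frequent only against AcH3-only starts, by more than the counting intervals. For C/EBP these intervals barely parted, at 6.94% against 6.93%. CCAAT and ETS matches were less frequent than in AcH3-only starts by more than the counting intervals. The intervals overlapped for the other 6, which were TATAAA, the CArG box, the cAMP response element TGACGTCA, the GC box GGGCGG, the TEAD motif GGAATG and the antioxidant response element TGACNNNGC. Median GC content was 60.8% in both sets. Starts with few CpG pairs, a ratio of observed to expected CpG under 0.4, made up 15.8% of doubly acetylated, 7.14% of AcH3-only and 61.3% of the starts without any AcH3 siControl region. The 716 doubly acetylated starts belong to 627 genes and the 5545 AcH3-only starts to 4912. The intervals count starts of 1 gene as independent and may be too narrow. A match is a string of letters and not a measured binding site. Most doubly acetylated regions lie away from promoters, and their own sequence was not analysed here.

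Doubly acetylated regions lay mostly away from genes' ends, unlike AcH3 regions as a whole. Of the members, 1215 or 21.8% (20.8% to 22.9%) lay within 1 kb of the annotated end of a protein-coding gene, against 61.0% of AcH3-only regions and a background of 50.1% over all AcH3 siControl regions under 2000 bp. A gene end here is either the 5′ or the 3′ end, since the gene table gives no strand. With annotated starts, which are known for 17274 of 21631 protein-coding genes and for other genes, 21.8% of members and 57.2% of AcH3-only regions lay within 1 kb of a start. The start itself fell inside 702 members (12.6%) and 4936 AcH3-only regions (34.0%). The median distance to the nearest start was 11024 bp for members and 256 bp for AcH3-only regions. Chromosome 18 is not in the table of starts, so its 105 members are left out of these distances.

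**Figure D1:**
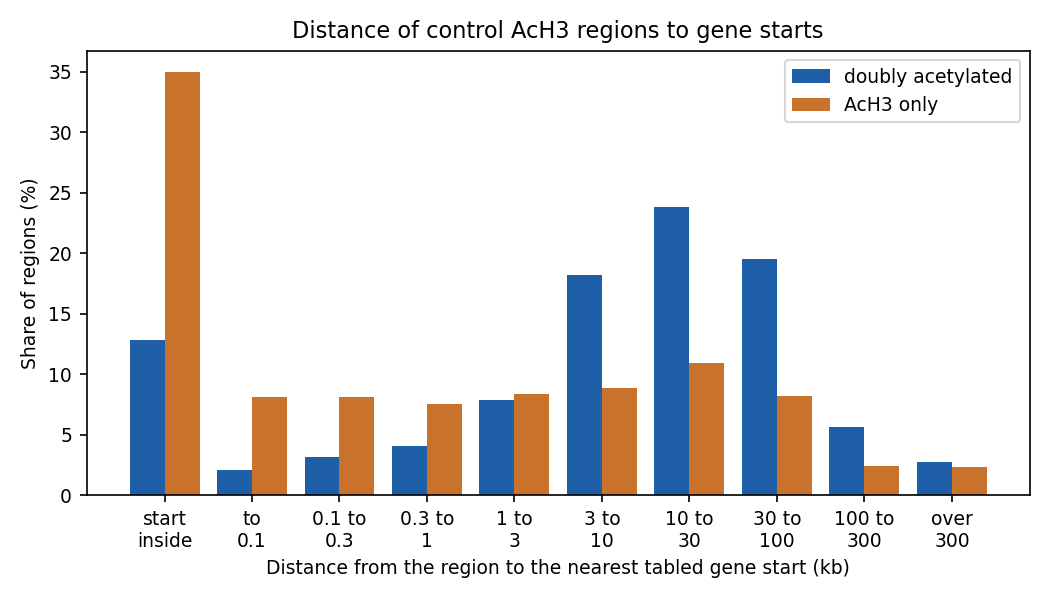
Share of doubly acetylated regions (blue) and AcH3-only regions (orange) by distance in kb from the region to the nearest annotated gene start. The start lay inside 12.9% of the 5461 doubly acetylated regions with a distance and 35.0% of 14111 AcH3-only regions, and 23.8% against 10.9% lay 10 to 30 kb away.

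Beyond 1 kb of any end, 2126 members (38.2%) lay inside a gene span and 2225 (40.0%) between genes. The same shares of AcH3-only regions were 27.2% and 11.9%. Read the other way, 12.7% of the 9507 AcH3 siControl regions near a start were doubly acetylated (12.1% to 13.4%), and 47.0% of the 8410 regions away from starts and gene ends (45.9% to 48.1%). This gap was there at every strength of AcH3: in regions near a start the doubly acetylated share ran from 9.22% to 14.9% over 5 classes of AcH3 fold, and away from ends it ran from 41.5% to 58.8%. On each of the 20 chromosomes a larger share of AcH3-only regions than of members lay near a gene end, by 27.7 to 49.2 percentage points.

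The members fall into 3 location classes that are used throughout: 1211 near a start, 402 near another gene end, which includes starts of genes that the table of starts lacks, and 3953 away from both. Near a start, AcH3 was the stronger and broader mark. The median AcH3 siControl fold there was 8.20 (quartiles 5.07 and 12.0) with a width of 1147 bp, and the median AcH2B siControl fold was 4.53 (3.83 and 5.62) with a width of 475 bp. Away from starts and gene ends, a class that includes the inside of genes, the order was turned. AcH3 had a median fold there of 4.29 (3.63 and 5.16) over 436 bp and AcH2B one of 4.95 (4.09 and 6.32) over 762 bp. The AcH3 fold was above the AcH2B fold in 77.6% of members near a start and in 34.4% of those away. The AcH3 region was the wider in 72.1% and 25.4%. Folds of different antibodies come from different libraries, so these values show an order within each class and not an amount of acetylation.

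The 2 marks overlapped to differing extents. The median overlap was 356 bp, the best summits lay a median of 184 bp apart and within 200 bp of each other in 52.4% of members, and 35.4% of members lay wholly inside the AcH2B region. An overlap of under 50 bp was found in 2.37% of members, and one that covered 50% or more of both regions in 2063. Their strengths were nearly unrelated across members, with a Spearman correlation of AcH3 and AcH2B siControl folds of 0.02 over 5566 regions. This correlation was 0.16 over the 3953 away from starts and gene ends and -0.09 over the 1211 near a start.

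Among members within 1 kb of a protein-coding gene end, those ranked highest by the lower of their AcH3 and AcH2B siControl folds stood at genes of ubiquitin, membrane transport, transcriptional repression and messenger RNA export. The ubiquitin gene Ubb, which encodes a stress-responsive polyubiquitin, had its region at chr11:62550183-62552107 across an annotated start. Its AcH3 folds were 19.5, 15.6 and 10.6 in siControl, siME1 and siME2, its AcH2B folds 13.5, 16.2 and 12.6, and HDAC3 was called in siControl alone with a fold of 2.51. AcH3 was lower in both knockdowns than in siControl, and AcH2B was highest in siME1.

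Slc35b1 (chr11:95384528-95385925), a nucleotide sugar transporter of the endoplasmic reticulum, had AcH3 folds of 13.6, 8.95 and 5.76, AcH2B folds of 11.2, 12.3 and 8.27, and HDAC3 folds of 3.41 and 3.52 in siControl and siME1. Hic1 (chr11:75168230-75169263), a zinc finger repressor, had AcH3 folds of 14.2, 10.1 and 5.22 and AcH2B folds of 10.2, 17.5 and 8.97, with no HDAC3 region. Poldip3 (chr15:83147898-83149652), a factor of messenger RNA export, had AcH3 folds of 11.4, 10.9 and 5.58 and AcH2B folds of 9.66, 11.2 and 5.26. The nucleoporin gene Nup85 (chr11:115563772-115565338) had AcH3 folds of 11.1, 7.77 and 3.77 and AcH2B folds of 9.50, 11.7 and 6.99. These 5 had the order siControl, siME1, siME2 in AcH3, from high to low, and their highest AcH2B fold in siME1. The ranking used siControl folds, so the lower AcH3 folds in the knockdowns are not independent of it.

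Far from protein-coding genes, the 3 members ranked highest by the same value more than 10 kb from any protein-coding gene end stood above Slc35b1 in that ranking, and the first of them above Ubb. One at chr1:72243489-72244281 covered the start of the non-coding gene D230017M19Rik and had AcH3 folds of 13.8, 10.3 and 5.47 and AcH2B folds of 16.3, 11.1 and 11.4. One at chr2:30706941-30708145, in a stretch without protein-coding genes, had AcH3 folds of 12.7, 11.6 and 9.68, AcH2B folds of 14.1, 18.4 and 9.44, and an HDAC3 siControl fold of 3.60. The region at chr13:48545923-48546679, nearest to Ptpdc1, had AcH3 folds of 22.9, 15.2 and 4.87 and AcH2B folds of 11.6 and 9.05, with no AcH2B region in siME2. AcH3 was again highest in siControl in all 3, an order that a ranking on siControl folds favours. Members with an AcH3 siControl fold over 8, near a start or away, were mostly lower in both knockdowns, as given below.

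After knockdown, doubly acetylated control regions were found again more often than AcH3-only regions, by more than the counting intervals. In a bulk library, fewer cells with a mark and less of the mark in each cell cannot be told apart. AcH3 was called in siME1 at 4975 members, or 89.4% (88.5% to 90.2%), against a background of 68.3% of all AcH3 siControl regions under 2000 bp and 60.2% of AcH3-only regions. In siME2 it was called at 4526 members, or 81.3% (80.3% to 82.3%), against a background of 43% and 28.3% of AcH3-only regions. AcH2B was called in siME1 at 94.8% of members (94.2% to 95.3%; background 54.9%) and in siME2 at 85.3% (84.4% to 86.2%; background 44.7%). With an overlap of 50% or more of both regions, the AcH3 shares were 51.7% and 47.0% and the AcH2B shares 32.8% and 46.5%, so that the order of the AcH2B shares turned. AcH2B in siControl chose the members, so the AcH2B shares set regions with a control call against regions without one. AcH2B siControl regions without AcH3, 13104 in number, gave a second yardstick: AcH3 was called at 50.3% of them in siME1 and at 45.1% in siME2.

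**Figure D2:**
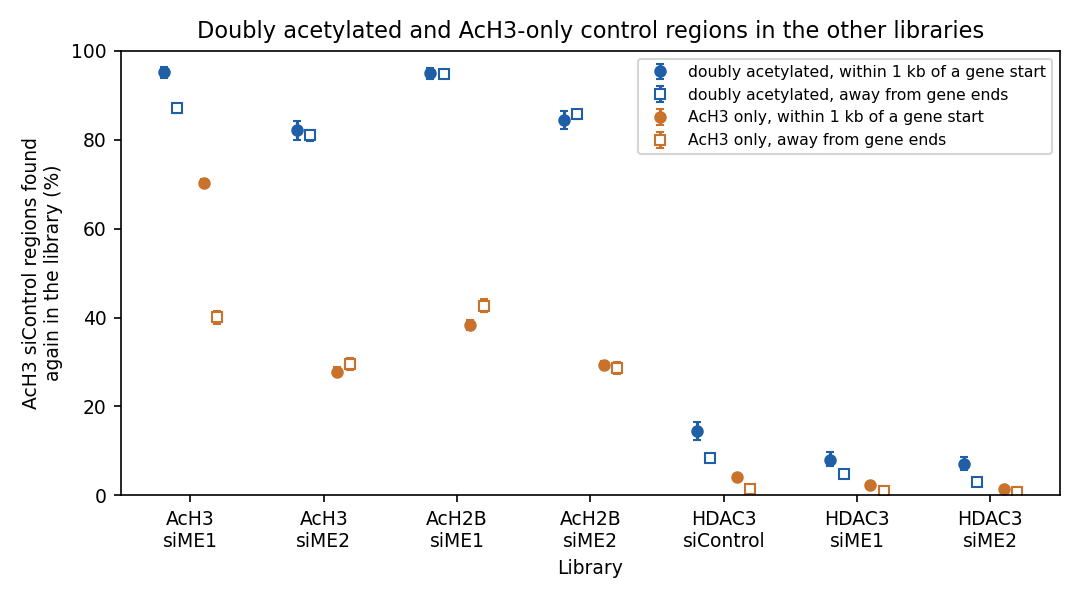
Share of AcH3 siControl regions under 2000 bp that met a region of each other library, for doubly acetylated regions (blue) and AcH3-only regions (orange), near a gene start (filled circles) or away from gene ends (open squares), with 95% Wilson intervals for counting error. In AcH3 siME2 the doubly acetylated shares were 82.2% near a start and 81.0% away, and the AcH3-only shares 27.8% and 29.5%.

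The location of a member made little difference to this in siME2 and more in siME1. AcH3 was called in siME2 at 82.2% of members near a start and 81.0% of those away, and in siME1 at 95.3% and 87.1%. AcH3-only regions differed from members in fold and width, so the comparison was also made within classes. In members with an AcH3 siControl fold up to 4, AcH3 was called in siME2 at 77.1%, against 21.4% of AcH3-only regions of that fold, and in members with a fold over 8 at 89.0%, against 41.8%. Among regions of up to 400 bp the siME2 shares were 72.0% and 18.9%. When AcH3-only regions were weighted to the members' mix of location, fold and width over 57 classes, AcH3 was called at 53.0% of them in siME1 and 32.2% in siME2, both below the members' 89.4% and 81.3%. On each of the 20 chromosomes the members' share was the higher, by 24.3 to 33.8 percentage points in AcH3 siME1 and by 47.2 to 57.9 points in AcH3 siME2. With each knockdown list limited to the siControl number of regions, AcH3 was called at 81.4% of members and 47.8% of AcH3-only regions in siME1, and at 75.9% and 23.6% in siME2.

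Both marks were called in both knockdowns at 3855 members, or 69.3% (68.0% to 70.5%). Among members that lacked 1 call, 468 had all but AcH3 in siME2 and 303 all but AcH2B in siME2. A further 191 had all but AcH3 in siME1 and 46 all but AcH2B in siME1. Both marks were missing from siME2 alone at 224 members and from siME1 alone at 31. Calls were thus missing from siME2 more often than from siME1 for either mark when 1 bp was enough. When the overlap had to cover 50% of both regions, AcH2B was missing more often from siME1. In all, 80 members, or 1.44%, had neither mark in either knockdown, and these had low control folds, with medians of 3.94 for AcH3 and 3.97 for AcH2B. The share with every call was 69.9% near a start and 69.0% away.

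Among the few members that had no AcH3 call in either knockdown but AcH2B in both (110), 4 named by the ranking were Cdkn1a, Espl1, Urb1 and the shared end of Dhx58 and Kat2a. Cdkn1a, the p21 inhibitor of the cell cycle, had a region at chr17:29091173-29091708 with an AcH3 siControl fold of 4.53 and AcH2B folds of 7.06, 6.74 and 3.22. Espl1, separase, had an AcH3 siControl fold of 8.20 and AcH2B folds of 4.32, 4.28 and 6.57. Only 26 members showed the reverse, with AcH3 in both knockdowns and AcH2B in neither. Rpsa, a ribosomal protein gene, had AcH3 folds of 17.4, 8.27 and 4.64 and an AcH2B siControl fold of 4.53, and Knl1, a kinetochore gene, AcH3 folds of 6.11, 3.22 and 3.38 and an AcH2B siControl fold of 5.40. Of the members without any knockdown call, Ror1, a Wnt5a receptor, had the strongest control folds among those at genes, with 7.24 for AcH3 and 5.93 for AcH2B, followed by Tmem86a (5.79 and 4.53), Il6ra (4.32 and 4.53) and Csrp1 (4.35 and 4.28).

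The fold of the AcH3 regions that members met in the knockdowns, set against siControl, followed the location. Near a start, the median log2 ratio of AcH3 folds was -0.37 in siME1 over siControl (quartiles -0.75 and 0.16, 1154 members) and -0.67 in siME2 (-1.23 and -0.07, 995 members). Away from starts and gene ends it was 0.30 in siME1 (-0.09 and 0.67, 3443 members) and 0.23 in siME2 (-0.15 and 0.59, 3201 members). AcH3-only regions had medians of -0.70 and -1.05 near a start and of -0.002 and 0.03 away. Both ratios share the siControl library, so they are given side by side and are not independent. Regions away from starts and gene ends were also wider in the knockdowns, by a median factor of 1.92 in siME1 and 1.65 in siME2. Near a start these factors were 0.94 and 0.61. The best summit of a knockdown region can lie outside the member that it overlaps.

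The difference between starts and other places went with the control fold. Members with an AcH3 siControl fold up to 4 had median log2 ratios in siME1 of 0.63 near a start and 0.61 away, and those with a fold over 8 had -0.66 and -0.45. In siME2 these medians were 0.55 and 0.55 in the low class and -1.15 and -0.74 in the high class. Members were selected in siControl and their ratio is taken to the same control value, so the ratio and the control fold are not independent. AcH3-only regions had the same slope at a lower level: their medians in siME1 were 0.35 and 0.30 in the low class and -0.92 and -0.85 in the high class. In each of the 5 fold classes and at both locations, the median of the members was above that of the AcH3-only regions. The gap was 0.25 to 0.45 in siME1 and 0.15 to 0.39 in siME2 on the log2 scale. These medians cover only regions called again in the knockdown. At a control fold up to 4, these were 77.1% of members and 21.4% of AcH3-only regions in siME2.

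**Figure D3:**
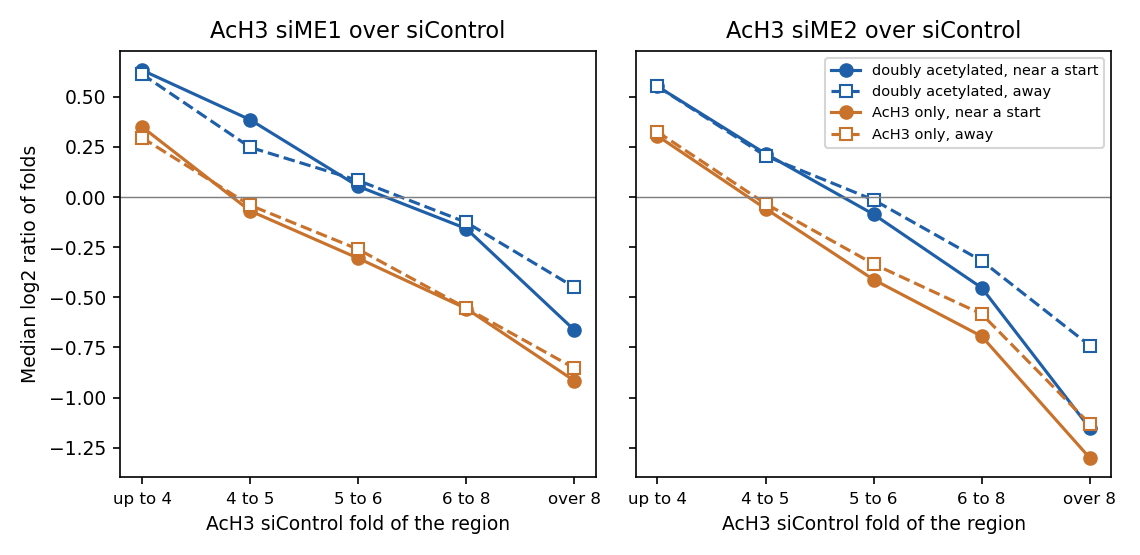
Median log2 ratio of AcH3 folds, siME1 (left) and siME2 (right) over siControl, by class of AcH3 siControl fold, for doubly acetylated regions (blue) and AcH3-only regions (orange), near a start (filled circles) and away from gene ends (open squares). All 4 lines go down from left to right, and the blue lines lie above the orange line of the same location in every class.

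AcH2B folds of the members were mostly higher in siME1. The median log2 ratio was 0.36 in siME1 over siControl (quartiles 0.02 and 0.70), with 76.6% of 5276 members higher, and 0.11 in siME2 (-0.21 and 0.44), with 59.4% of 4750 members higher. Unlike AcH3, this ratio was near the same at starts (0.38 and 0.16) and away (0.35 and 0.09). The AcH2B regions that members met were 1.96 and 1.19 times as wide as in siControl by the median, and their best summit can likewise lie outside the member.

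Across the 3855 members with every call, the order of folds was kept to differing extents. The Spearman correlation of AcH2B siControl was 0.52 with AcH2B siME1 and 0.45 with AcH2B siME2, while AcH3 siControl gave 0.33 with AcH3 siME1 and 0.09 with AcH3 siME2. Between siControl and siME1 the marks were close near a start, with 0.46 for AcH3 and 0.49 for AcH2B over 847 members. Away from starts and gene ends they were apart, with 0.19 and 0.51 over 2727 members. Between siControl and siME2 the values were 0.12 for AcH3 and 0.40 for AcH2B near a start and 0.10 and 0.45 away. AcH3 in siME2 correlated at 0.48 with AcH2B in siME2, and AcH3 in siME1 at 0.44 with AcH2B in siME1. The corresponding value in siControl was -0.02. Near a start and away, these values were 0.44 and 0.52 in siME2, 0.37 and 0.54 in siME1, and -0.15 and 0.14 in siControl. Members were selected on calls in the 2 siControl libraries, so the siControl value is not on equal terms with those of the knockdowns. These are descriptions over sites within 6 libraries, in which each fold is limited by the calling threshold.

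HDAC3 was called at few members, and at a larger share of them than of AcH3-only regions. In siControl, 568 members (10.2%; 9.44% to 11.03%) met an HDAC3 region, against a background of 5.15% over all AcH3 siControl regions under 2000 bp and 3.21% of AcH3-only regions. In siME1 and siME2 the members' shares were 5.61% and 4.13%, against backgrounds of 2.9% and 2.04%. The HDAC3 siControl share of members was 3.29% with a −log10 p of at least 5 in every list, and 1.55% with an overlap of 50% or more of both regions. The lists differed in length and in the share of regions at a q of at most 0.05, and the part of either in these shares was not tested. Weighted to the members' location, fold and width, AcH3-only regions met HDAC3 siControl at 2.68%. HDAC3 was more frequent near starts (14.4%) than away (8.42%), and within members with an AcH3 siControl fold over 8 it was called at 18.5%, against 5.26% of those with a fold up to 4.

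Only 38 members met HDAC3 in all 3 libraries and 885 in any. Ranked by the lower of their AcH3 and AcH2B siControl folds, and not by HDAC3, the 4 highest of the 38 at genes were Bhlhe40, Irf2bp2, Osmr and the shared start of Dtwd1 and Fam227b. Bhlhe40, a repressor of the circadian clock, had HDAC3 folds of 6.07, 3.40 and 5.06 in siControl, siME1 and siME2, the highest of the 4 in siControl and siME2, beside AcH3 folds of 8.24, 8.86 and 5.55. Osmr, the oncostatin M receptor, had HDAC3 folds of 3.40, 3.94 and 3.35 beside AcH3 folds of 6.75, 8.07 and 5.07, and Irf2bp2, a corepressor, had HDAC3 folds of 3.69, 3.03 and 2.72 beside AcH3 folds of 6.54, 6.61 and 6.16. Members with HDAC3 in siControl kept AcH3 calls at 95.4% in siME1 and 90.0% in siME2, against 88.7% and 80.3% of members without it. Their median AcH3 log2 ratios were 0.09 and -0.15, against 0.16 and 0.10. Members with and without HDAC3 were not matched on AcH3 siControl fold or location, both of which went with HDAC3 calls and with these values. A link of the differences to HDAC3 itself was not tested. The HDAC3 calls are weak, with 15.7%, 5.13% and 2.61% of those on members at a q of at most 0.05.

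Protein-coding genes with a doubly acetylated region within 1 kb of an end numbered 1215, or 5.62% of 21631. Gene lists chosen for 3T3-L1 cells were read against this share. Of 24 signalling feedback genes, which damp growth factor, cytokine and kinase signals, 12 had one, as did 12 of 28 preadipocyte and fibroblast genes and 8 of 20 cytokine and inflammatory genes. Of 20 immediate early and AP-1 genes 7 had one, and of 19 NRF2 and redox genes 6. Of 25 constitutively used genes 6 had one, so a share above 5.62% was not particular to the signalling and cell type lists. An AcH3 siControl region of any length stood at an end of 22 feedback, 27 preadipocyte and fibroblast and 13 cytokine genes. The same held for 19 immediate early, 16 redox and 23 constitutively used genes. Of 34 adipocyte genes 5 had one, although 19 had an AcH3 siControl region of any length at an end. Of 19 insulin signalling genes none had one, while all 19 had an AcH3 siControl region, and Akt2 had a member at an internal annotated start. No neuronal, hepatocyte, leukocyte or endothelial gene had one, with 20, 20, 20 and 15 genes in these lists, and 1 of 20 muscle genes (Tnni2, which shares its region with Syt8) and 1 of 15 bone and cartilage genes (Comp) did. These counts describe lists chosen with earlier results of these data known, and were not tested.

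**Figure D4:**
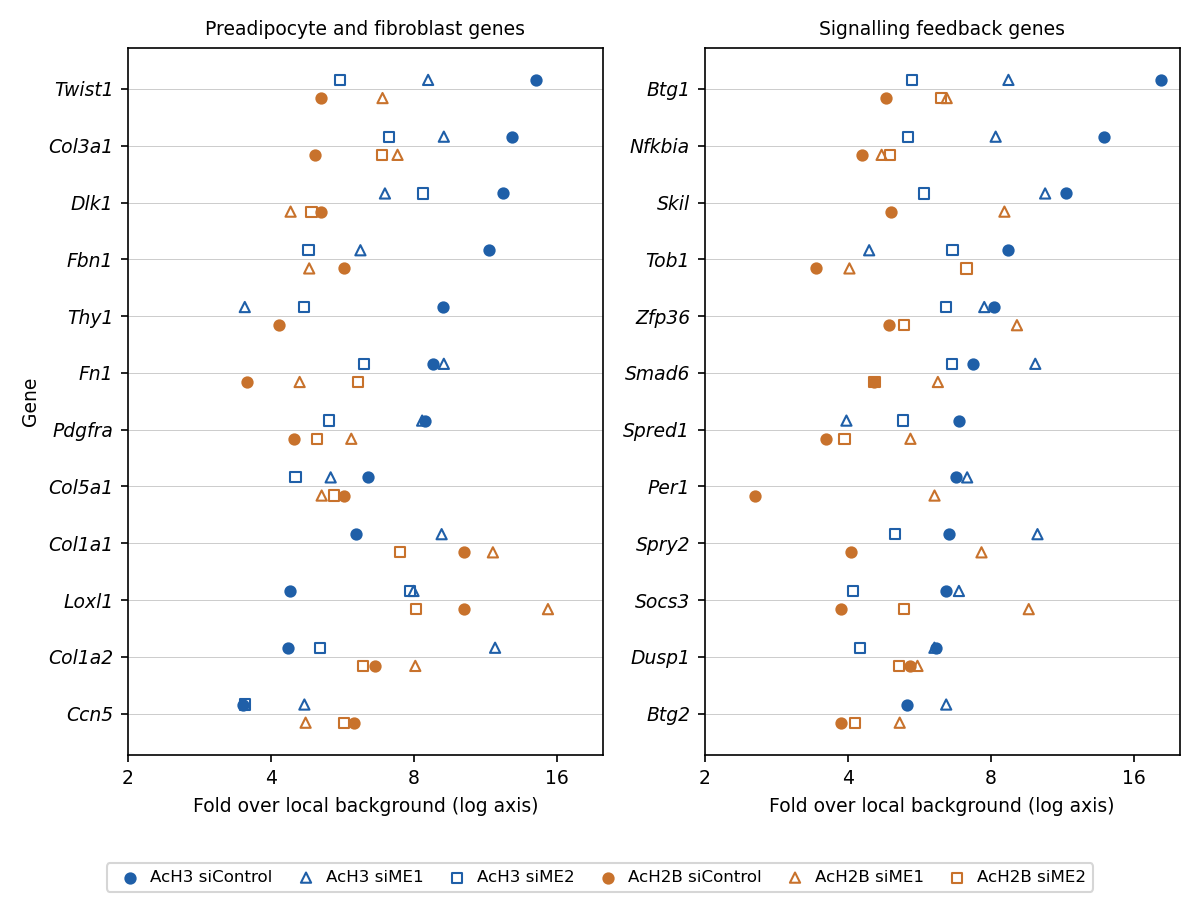
Fold over local background, on a log axis, of the doubly acetylated region with the highest AcH3 siControl fold at each of 12 preadipocyte and fibroblast genes (left) and 12 signalling feedback genes (right), for AcH3 (blue) and AcH2B (orange) in siControl (filled circles), siME1 (triangles) and siME2 (squares), 1 library each and a missing symbol where no region was called. AcH3 siControl folds ran from 3.49 at Ccn5 to 14.5 at Twist1 and from 5.32 at Btg2 to 18.3 at Btg1.

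Among preadipocyte and fibroblast genes, the 4 members with the highest AcH3 siControl folds had lower AcH3 folds in both knockdowns. They were picked by the control fold, so this is not independent of the choice. All members near a start with a fold over 8 had median log2 ratios of -0.66 in siME1 and -1.15 in siME2. The same limit holds for genes named by their AcH3 siControl fold in the lists below. Twist1, a transcription factor of mesenchymal cells, had AcH3 folds of 14.5, 8.57 and 5.59 in siControl, siME1 and siME2 and AcH2B folds of 5.09 and 6.87, with no AcH2B region in siME2. Col3a1, a fibrillar collagen gene, had AcH3 folds of 12.9, 9.25 and 7.08, AcH2B folds of 4.95, 7.39 and 6.86, and HDAC3 folds of 3.27 and 2.53 in siControl and siME1. Dlk1, the classic preadipocyte marker that blocks adipogenesis, had AcH3 folds of 12.3, 6.95 and 8.37 and AcH2B folds of 5.09, 4.40 and 4.87. In these 3 genes, and in Fbn1, the fibrillin gene (11.5, 6.17 and 4.80), AcH3 was highest in siControl.

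At 5 of the 12 genes AcH3 was higher in siME1 than in siControl. Col1a1, the chain of type I collagen, had a region at chr11:94935618-94936040 just outside the gene with AcH3 folds of 6.05 in siControl and 9.15 in siME1, no AcH3 region in siME2, and AcH2B folds of 10.2, 11.7 and 7.48. Col1a2, its partner chain, had AcH3 folds of 4.34, 11.9 and 5.08 and AcH2B folds of 6.64, 8.05 and 6.24. Loxl1, an enzyme that cross-links elastin, had AcH3 folds of 4.38, 7.98 and 7.84 and AcH2B folds of 10.2, 15.3 and 8.09. Fn1, the fibronectin gene, had AcH3 folds of 8.77, 9.25 and 6.28, and Ccn5, a matricellular protein gene, had 3.49, 4.70 and 3.52. Pdgfra, the receptor that marks adipocyte precursors, had AcH3 folds of 8.44, 8.32 and 5.30 and AcH2B folds of 4.46, 5.90 and 4.99. Thy1, a surface protein of fibroblasts, was the 1 gene of the list without AcH2B in either knockdown, and its AcH3 folds were 9.23, 3.52 and 4.70. Col5a1, the chain of a minor fibrillar collagen, had AcH3 folds of 6.40, 5.34 and 4.51. Over the list, 13 of 13 regions met AcH3 in siME1 and 11 in siME2, 12 and 10 met AcH2B, and 3, 1 and 0 met HDAC3 in siControl, siME1 and siME2. Over all members the shares were 89.4% and 81.3% for AcH3, 94.8% and 85.3% for AcH2B, and 10.2%, 5.61% and 4.13% for HDAC3. With so few regions in a list, the counts given here for lists are descriptions to be read against these shares.

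Of the 12 feedback genes with a member, Btg1, an antiproliferative factor, had AcH3 folds of 18.3, 8.72 and 5.47 and AcH2B folds of 4.81, 6.46 and 6.28. Nfkbia, which encodes the inhibitor of NF-kB, had AcH3 folds of 13.8, 8.20 and 5.35 and AcH2B folds of 4.29, 4.72 and 4.91. Skil, a repressor of TGF-beta signalling, had AcH3 folds of 11.5, 10.4 and 5.80. Tob1, another antiproliferative factor, had AcH3 folds of 8.70, 4.44 and 6.65. Among weaker members the order varied. Spry2, an inhibitor of receptor tyrosine kinase signals, had AcH3 folds of 6.55, 10.0 and 5.03, and Socs3, the feedback inhibitor of JAK and STAT signals, 6.45, 6.86 and 4.10, both with their highest value in siME1, while Spred1, an inhibitor of RAS and MAP kinase signals, had 6.88, 3.98 and 5.22. Dusp1, a phosphatase of MAP kinases, had all 9 libraries called, with AcH3 folds of 6.12, 6.09 and 4.24, AcH2B folds of 5.40, 5.61 and 5.13 and HDAC3 folds of 5.52, 3.72 and 4.47. Of the 15 regions of the list, 15 met AcH3 in siME1 and 13 in siME2, 15 and 11 met AcH2B, and 5, 4 and 2 met HDAC3.

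Among immediate early genes, whose transcription follows a signal within minutes, Ier3 had AcH3 folds of 16.1 in siControl and 7.48 in siME1, no AcH3 region in siME2, with AcH2B folds of 5.85, 6.20 and 3.34. Jund had AcH3 folds of 13.5, 8.62 and 7.04, Jun 10.4, 8.95 and 3.62, and Klf6, a zinc finger factor, 9.34, 12.0 and 6.03. Junb had nearly level AcH3 folds of 9.06, 9.17 and 7.90 and AcH2B folds of 7.67, 8.84 and 8.04. HDAC3 siControl was called at 6 of the 9 regions of this list, against 10.2% of all members, among them Ier3 (4.53), Jund (4.19), Junb (3.19) and Klf10 (4.34).

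Among cytokine and inflammatory genes, Ptgs2, the inducible cyclooxygenase, had AcH3 folds of 10.6, 6.62 and 7.23, and the chemokine gene Cxcl5 had 7.33, 10.6 and 8.28. Hmox1, the heme oxygenase that is also an NRF2 target, had AcH3 folds of 11.8, 4.66 and 4.78, and Csf1, the macrophage growth factor, had 5.27, 4.37 and 4.37 with AcH2B folds of 6.62, 7.55 and 5.26. Il6 and Ccl2 had AcH3 siControl folds of 4.10 and 4.04, and Il6 had no AcH3 region in either knockdown while AcH2B stood at 3.93, 5.34 and 4.01. HDAC3 was called in siControl at 4 of the 10 regions of this list in siME1 at none and in siME2 at 4, against 10.2%, 5.61% and 4.13% of all members.

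The redox genes with a member were Sqstm1, Srxn1, Hmox1, Gsr, Prdx1 and Gpx1. Srxn1, the sulfiredoxin whose promoter is printed above, had AcH3 folds of 12.4, 8.99 and 4.82, AcH2B folds of 7.67, 10.0 and 6.30 and an HDAC3 siControl fold of 2.72. Prdx1, a peroxiredoxin, had AcH3 folds of 7.15, 6.06 and 3.86 and AcH2B folds of 4.74, 4.94 and 7.72. Sqstm1, an adaptor of autophagy that feeds back on NRF2, had AcH3 folds of 15.1, 7.52 and 8.45, and Gsr, glutathione reductase, 10.9, 5.03 and 5.37. Of 21 NADPH-producing enzyme genes 1 had a member at an end, or 4.76%, near the 5.62% of all protein-coding genes. An AcH3 siControl region of any length stood at an end of 18 of the 21. The gene with a member was Nnt, the mitochondrial transhydrogenase, with AcH3 folds of 12.4, 5.64 and 5.38 and AcH2B folds of 6.13, 3.43 and 4.61.

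Of the adipocyte genes, 5 carried a member at an end. Rxra, the partner receptor of PPAR gamma, had AcH3 folds of 16.4, 12.1 and 4.58 and AcH2B folds of 3.83 and 8.80, with no AcH2B region in siME2. Fasn, fatty acid synthase, had AcH3 folds of 11.9, 9.28 and 6.00 and AcH2B folds of 6.02, 10.2 and 5.10. Dgat2, which makes triglycerides, had AcH3 folds of 7.33, 5.74 and 5.15 and AcH2B folds of 4.32, 5.31 and 7.71. Ebf1, a factor of adipocyte commitment, had AcH3 folds of 6.34, 3.30 and 4.37, and Plin4, a lipid droplet coat protein, 5.11, 3.68 and 6.22. All 6 regions of the list met AcH3 in both knockdowns and none met HDAC3 in any library, which for 6 regions is close to what the shares over all members give. Lipe, the hormone-sensitive lipase, had a member at an internal start. Scd2, a stearoyl-CoA desaturase of the fatty acid list, had AcH3 folds of 14.6, 5.97 and 6.58, AcH2B folds of 4.39, 3.93 and 5.04 and an HDAC3 siControl fold of 3.42.

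The genes of the study's own proteins were not doubly acetylated in control cells. Me1 had an AcH3 siControl region of 1171 bp with a fold of 15.4, and AcH2B was called there in siME1 (3.88) and siME2 (4.58) but not in siControl. Its AcH3 folds in the knockdowns were 8.27 and 3.87. Of all AcH3-only regions, 39.6% met AcH2B in siME1 and 29.1% in siME2. Me2 had AcH3 siControl regions with folds of 8.23 and 7.06, and Hdac3 one with 11.1, with no AcH2B region in any library. In siME1 their AcH3 folds were 4.32, 4.14 and 7.82, and in siME2 none had an AcH3 region. HDAC3 was called at the Hdac3 region in siControl, with a fold of 3.74. Of the 9 HDAC3 and NCoR complex genes, Tbl1xr1, Nr1d1 and Nr1d2 had a member at an end (33.3%, against 5.62% of all protein-coding genes). Tbl1xr1, a core subunit, had AcH3 folds of 19.5, 14.7 and 6.44 and AcH2B folds of 8.93, 15.0 and 3.43. Nr1d1, the REV-ERB alpha receptor that recruits the complex, had AcH3 folds of 7.84, 8.99 and 3.53, and Nr1d2 had 7.53 and 8.04 with none in siME2. Of 25 acetyltransferase and deacetylase genes, 6 (24%) had a member at an end, the same share as constitutively used genes. AcH3 folds were 16.5, 12.2 and 5.10 at the acetyltransferase gene Kat5 and 13.3, 7.85 and 3.95 at Hdac2.

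Actin and SRF target genes had a member at an end in 6 of 25 cases (24%). This was the same share as for constitutively used genes, and above the 5.62% of all protein-coding genes. Tpm4, a tropomyosin, had AcH3 folds of 21.8, 18.4 and 11.3 and AcH2B folds of 7.99, 13.8 and 5.99. Acta2, smooth muscle actin, had AcH3 folds of 5.48, 7.40 and 4.94, and Ccn1, a matricellular target of YAP, 5.53, 5.74 and 4.64. Srf itself, whose member lay at an internal start, had AcH3 folds of 22.3, 11.4 and 4.07 and AcH2B folds of 4.06 and 8.01, with no AcH2B region in siME2.

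Doubly acetylated regions came in groups. With members less than 12.5 kb apart joined, 3407 members (61.2%) fell into 1127 groups of 2 or more, and 32 groups held 8 or more, with 314 members. AcH3-only regions joined in the same way were grouped at 59.3%, but their larger number gave only 16 groups of 8 or more. Members of groups of 8 or more had every knockdown call at 75.5%, against 60.5% of the 2159 single members. Members of a group can meet the same wide knockdown region: the 5276 members with AcH2B in siME1 met 4746 regions.

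The largest group held 18 members over 50.1 kb across Socs3 and Pgs1 (chr11:117962458-118012553), with median folds of 4.34 for AcH3 and 6.46 for AcH2B in siControl. Of these 18, 15 met AcH3 in siME1 and in siME2, and 7 met HDAC3 in siControl. A group of 17 members over 32.0 kb lay in a stretch of chromosome 2 without protein-coding genes (chr2:30691732-30723740), 71.8 kb from the nearest one, and held the microRNA gene Mir3089. Its median AcH2B folds were 8.31, 14.6 and 7.71 in siControl, siME1 and siME2. Groups of 15 and 12 members lay across Vmp1 and next to Col1a1. The Col1a1 group had median AcH3 folds of 4.32, 7.05 and 6.26 and AcH2B folds of 8.74, 8.70 and 7.35. Groups of 11 members each lay across Gsn, the gelsolin gene, and Bmf, a proapoptotic gene. A group of 10 lay 70.3 kb from Cebpb, an early factor of adipogenesis, with 10 of 10 members called for AcH3 in siME1 and 9 in siME2, and a group of 9 lay 28.9 kb from Dlk1, with 7 called for AcH3 in each knockdown and a median AcH2B fold of 7.18 in siControl and 17.9 in siME1. The group of 8 at Mdm2 stands apart with a median AcH3 siControl fold of 1.46, and 15 members in all had a background over 5 times the lowest of the library.

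The share of AcH3 siControl regions that were doubly acetylated differed between chromosomes and went with the local background. It was 9.20% on X, 39.7% on chromosome 8 and 40.0% on chromosome 15, and lay between 20.4% and 35.1% on the others. The median background of AcH3 siControl regions on these chromosomes, in multiples of the lowest in the library, was 1.00 on X, 1.76 on chromosome 8 and 1.67 on chromosome 15. Over the 20 chromosomes the Spearman correlation of the share with this background was 0.81, and 0.70 over 17 without these 3. With AcH3 siControl regions divided by their own background into 4 classes of nearly equal size, the share was 23.0% in the lowest class and 28.2%, 29.7% and 29.97% in the others, so it was nearly level over the upper 3 classes. The part of background in the choice of members was not tested. Without chromosomes 8 and 15, AcH3 was called at 89.4% of members in siME1 and 80.8% in siME2, and 21.9% lay near a gene end.

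**Figure D5:**
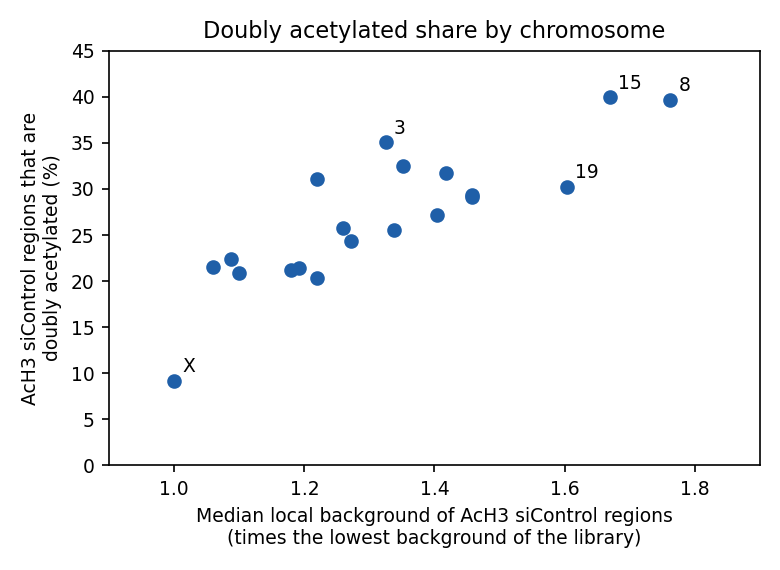
Share of AcH3 siControl regions under 2000 bp that were doubly acetylated on each of 20 chromosomes against the median local background of these regions, in multiples of the lowest background of the library. Chromosomes 8 and 15 lie at the upper right with 39.7% and 40.0%, and X at the lower left with 9.20%.

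MicroRNA genes were about as frequent at doubly acetylated regions as at AcH3-only regions. Of 1005 annotated hairpins, 29 lay within 1 kb of a member, which is 5.21 hairpins for 1000 members and 5.31 for 1000 AcH3-only regions. All 3 hairpins of the miR-199 family were among them, within the dynamin genes Dnm1, Dnm2 and Dnm3, and share the seed of the 3p arm. Mature sequences are shown, from RefSeq on GRCm38.p6, with the seed (bases 2 to 8) in capitals, because the members at Mir199a-1 and Mir199b had large differences between siControl and the knockdowns.
mmu-miR-199a-3p, of Mir199a-1 and Mir199a-2: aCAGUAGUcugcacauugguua
mmu-miR-199b-3p, of Mir199b: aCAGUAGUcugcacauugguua
mmu-miR-199a-5p, of Mir199a-1 and Mir199a-2: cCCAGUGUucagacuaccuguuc
mmu-miR-34b-3p, of Mir34b: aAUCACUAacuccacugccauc
mmu-miR-34c-3p, of Mir34c: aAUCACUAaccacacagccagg

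The Mir199a-1 hairpin (chr9:21496495-21496564) lay inside a member with AcH3 folds of 3.61, 13.5 and 7.00 in siControl, siME1 and siME2 and AcH2B folds of 3.85, 12.8 and 9.31. A second member 680 bp from it had AcH3 folds of 9.68, 8.81 and 4.82 and AcH2B folds of 10.1, 7.14 and 6.65, so AcH3 was highest in siME1 in the first and in siControl in the second. The member 493 bp from Mir199b had AcH3 folds of 6.41, 13.7 and 11.5 and AcH2B folds of 11.2, 13.9 and 15.6. Near Mir199a-2, 363 bp away, AcH3 stood at 5.79 in siControl and 4.44 in siME1, with none in siME2, and AcH2B at 6.21 and 5.15 in siControl and siME2 with none in siME1. Mir34b and Mir34c, which share the 3p seed and are targets of p53, lay at 1 member with AcH3 folds of 11.8, 8.56 and 4.64 and AcH2B folds of 5.65, 6.35 and 4.56. These genes were picked after their values were seen, and the levels of the microRNAs were not analysed here.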

How the data were processed

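Chromatin immunoprecipitation and sequencing with 3 antibodies under 3 siRNAs gave 9 peak tables, 1 per library. The submitters' processing notes list MACS2, BWA, SAMtools, deepTools and bedtools without versions and give mm8 as the build, whereas the chromosome ends and scaffold names in the deposited files are those of GRCm38, which is used here with positions counted from 1. Each deposited table gives per summit the pileup as a signal, the −log10 p and −log10 q of the call, and the fold, which is the ratio of pileup to local background after the authors' pseudocount of 1. From this ratio the background was recovered. An input control and the settings of peak calling were not stated in the labels. The acetylation lists end at a q of 0.05 and the HDAC3 lists reach a q of 1. Read totals were not used here, so depth is unknown.

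Summit rows of a region were merged, the summit with the highest −log10 p was taken, and regions sharing 1 bp or more were counted as shared. Ratios of folds are log2 values of the deposited folds with no added pseudocount. Genes, starts, promoters and microRNAs came from RefSeq (GRCm38.p6), and all 431 listed genes matched by symbol or synonym. Members, gene lists and classes were chosen with earlier results of these data known. Named genes are, among members within 1 kb of a protein-coding gene end, the 6 with the highest value of the lower of their AcH3 and AcH2B siControl folds and the 4 highest on it in each fate and HDAC3 class, up to 4 per gene list, all of the adipocyte and preadipocyte lists, the 3 highest members over 10 kb from a gene end, and Me1, Me2 and Hdac3. One gene that the rule names is not reported here. Genes named beyond these, such as Dusp1, Socs3, Spry2, Spred1, Junb, Klf10, Il6, Ccl2, Prdx1, Acta2, Srf and the microRNAs, were picked after their values were seen. Intervals are 95% Wilson intervals. Other overlaps, thresholds, list sizes, windows and lengths were tried. Python 3.11.15, pandas 2.3.3, numpy 2.4.6, SciPy 1.17.1 and matplotlib 3.10.9 were used, and the overlap functions were tested on simulated data.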

Additional observations from a re-analysis of the deposited data

How the results depend on the processing

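Of 65 values recomputed under other settings, 30 stayed close, 32 moved by more than the counting interval and 3 changed sign. When an overlap had to cover 50% of both regions, 2063 members were left, with 14.9% within 1 kb of a gene end. AcH3 was then called at 51.7% in siME1 and 47.0% in siME2, AcH2B at 32.8% and 46.5%, and HDAC3 siControl at 1.55%. Over members of all locations, the median log2 ratios of AcH3 were then -0.0137 in siME1 and -0.0314 in siME2. With an overlap of 1 bp they were 0.15 and 0.08, so their signs turned. Those of AcH2B were 0.22 and 0.021. The medians of this section are not split by location. AcH3-only regions had AcH3 shares of 35.3% and 11.9% in the same setting. With a −log10 p of at least 5 in every list, the gene-end share was 23.5%, the AcH3 shares 88.3% and 79.6%, the AcH2B shares 93.2% and 84.3%, the HDAC3 share 3.29% and the AcH3 medians 0.12 and 0.043. With knockdown lists limited to the control number of regions, the AcH3 shares were 81.4% and 75.9%, the AcH2B shares 82.6% and 75.6%, and the medians 0.21, 0.13, 0.42 and 0.18. Without the length limit, the gene-end share was 29.9%, AcH3 was called at 90.9% and 83.3%, AcH2B in siME1 at 95.4% and HDAC3 at 14.2%, and the AcH3 medians were 0.011 and -0.10, the latter turned in sign. A window of 5 kb gave a gene-end share of 36.7%. The cause of these shifts was not tested. Leaving out high-background regions, or chromosomes 8 and 15 (chosen after seeing the data), or using tabled starts, left every value recomputed close to the reported one. No paired analysis was possible because each group holds 1 library. Presence depends on the unknown depth of each library, and a missing call does not show that a mark is absent.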

Other observations

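Some genes held many doubly acetylated regions inside their span. Vmp1 held 17, Mylk, the myosin light chain kinase gene, 16, Gse1 and Syn3 14 each, Rad51b 13, and Septin9, Wwp2 and Zfhx3 12 each. Gsn, Nfix, Tgfbr3 and Trio held 11 each. Long genes have more room for such regions, and the counts were not set against gene length. The group of 13 regions on chromosome 3 (chr3:121574234-121610617), 41.9 kb from Slc44a3, had every member called for both marks in both knockdowns, with median AcH2B folds of 8.34, 15.6 and 9.96 in siControl, siME1 and siME2 and median AcH3 folds of 3.98, 7.47 and 8.18. The group of 9 regions across S100a2, S100a3, S100a4 and S100a5, genes of calcium-binding proteins, was also called for both marks in both knockdowns at all 9.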
